A study of Mus musculus with 3 samples.

Results

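Distal convoluted tubule (DCT) cells made up 1270 of the 48404 kidney cells kept from 3 single-cell libraries, which held 73281 barcodes in all. DCT cells were chosen by their UMIs (unique molecular identifiers, one for each captured RNA molecule). A barcode counted as a DCT cell when it held at least as many UMIs as the shallowest barcode of the Aoah-/- mouse 3 library and at least 200 genes, at most 50% of its UMIs from the 13 mitochondrial genes, and 3 or more UMIs of Slc12a3. Slc12a3 encodes the thiazide-sensitive sodium chloride cotransporter NCC, the defining transporter of this segment. Cells of other kinds were kept out by limits on their own genes. These limits were 2 UMIs for the sum of Slc12a1, Aqp2 and Atp6v1g3 (ascending limb, principal and intercalated cells), 2 UMIs for Lrp2 and Slc34a1 (proximal tubule), and 1 UMI for Ptprc and Tyrobp (leukocytes). Levels of these 8 genes in the selected cells are therefore a description of the choice and were not tested.

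The kidneys belonged to Aoah-/- mice, of which replicates 2 and 3 were used, and to WT replicate 3, all given folic acid (FA), an agent that injures the tubules, and all taken on day 14. The mice were labelled 6 to 8 weeks old, the Aoah mutation was carried on a C57BL/6J background with WT littermates as controls, and no kidney without FA was among the samples used here. Each mouse gave 1 droplet library of whole kidney dissociated with collagenase, so the spread between WT mice is unknown and no test between genotypes stands as a main result. Values are given below in the order Aoah-/- mouse 2, Aoah-/- mouse 3 and WT mouse, and levels of summed cells are UMIs of a gene per 1000000 UMIs of those cells (CPM).

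The DCT is a short stretch of the nephron between the thick ascending limb and the connecting tubule. It reabsorbs sodium chloride through NCC, whose activity is set by the WNK kinases and by potassium channels of the basolateral membrane, and it is the last segment to reabsorb magnesium, through the channel TRPM6. Its early part is rich in parvalbumin (Pvalb), and its late part, which shades into the connecting tubule, carries calbindin (Calb1) and the machinery for transcellular calcium transport.

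There were 410, 511 and 349 DCT cells, or 2.66%, 2.59% and 2.63% of the kept cells (exact Clopper-Pearson 95% intervals 2.41 to 2.92%, 2.38 to 2.83% and 2.36 to 2.92%, which cover counting error only). The 3 shares lay within each other's intervals. They depended on the limits, and were 1.03%, 1.36% and 1.503% when at most 20% of UMIs could be mitochondrial and 0.829%, 0.630% and 0.965% when no UMI of an excluded marker was allowed. The median DCT cell held 9703.5, 8303 and 9883 UMIs and 2626.5, 2373 and 2657 genes, and the summed DCT profiles held 4124438, 4796806 and 3736977 UMIs. The median mitochondrial share was 30.2%, 26.4% and 26.1%, above the 10.7%, 15.02% and 13.2% of all kept cells. No barcode was a DCT cell in more than 1 library. Cells with 3 or more Slc12a3 UMIs numbered 636, 989 and 500, and the limits on other genes removed 226, 478 and 151 of them, mostly for proximal tubule UMIs (167, 395 and 117 cells). The Aoah-/- mouse 3 library stood apart in that no barcode fell below the UMI total used as the limit, whereas the lowest barcode of both other libraries held 500 UMIs.

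Slc12a3 (chromosome 8, 94329201 to 94366214 on GRCm38, forward strand) reached 3183, 3259 and 2794 CPM in DCT cells against 7.83, 11.02 and 4.80 CPM in ascending limb cells. The median DCT cell held 29.5, 23 and 23 Slc12a3 UMIs, far above the limit of 3. Just outside the limit, 10, 69 and 14 cells that met all the other limits held exactly 2 UMIs. Just inside it, 13, 39 and 9 cells held exactly 3. The cells at 2 UMIs carried 0, 85.9 and 31.7 CPM of Pvalb and those at 3 UMIs 25.01, 485 and 32.0 CPM. For Calb1 the levels were 502, 738 and 103 CPM at 2 UMIs and 450.2, 793 and 19.2 CPM at 3 UMIs. The cells near the limit were few, except in Aoah-/- mouse 3, and cells at 2 UMIs carried Calb1 in both Aoah-/- libraries.

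The label was checked against Pvalb and Calb1, which the choice of cells did not use. Pvalb (chromosome 15, 78191114 to 78206400, reverse strand), a cytosolic calcium buffer, stood at 499, 857 and 413 CPM in DCT cells and at 1.998, 2.02 and 0 CPM in ascending limb cells. Calb1 (chromosome 4, 15881264 to 15908064, forward strand), another calcium buffer, stood at 1824, 2697 and 1391 CPM, against 21.1, 28.9 and 7.36 CPM in ascending limb cells. With every cell thinned to the UMI limit, 35.4%, 48.9% and 30.7% of DCT cells held a Pvalb UMI, against 0.331%, 1.56% and 0.119% of proximal tubule cells, which should lack it. For Calb1 these shares were 46.6%, 58.5% and 39.5% in DCT cells and 1.55%, 5.42% and 0.816% in proximal tubule cells. In principal cells Calb1 was found in 77.7%, 68.3% and 69.6% and Pvalb in 0% of each library. Calb1 thus does not tell DCT cells from principal cells, and only Pvalb does. Median depths before thinning were 7601, 4197 and 8754.5 UMIs in proximal tubule cells, and the unthinned shares with a Pvalb UMI were 50.5%, 60.9% and 43.0% in DCT cells. Both markers thus lay far above the level that free RNA gave in these droplets. They were nevertheless absent from many of the cells, which is described with the classes below.

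Among all genes outside the mitochondrial and ribosomal protein sets, the highest levels belonged to Gm42418, a locus that overlaps ribosomal RNA sequence (57112, 43136 and 39526 CPM), and the nuclear RNA Malat1 (38883, 30139 and 36237 CPM). The next were genes of salt transport. The sodium pump subunits Fxyd2 and Atp1b1 averaged 9105 ± 860 and 4731 ± 319 CPM (SD, n = 3 libraries). Slc12a3 itself ranked 10th. S100g (calbindin-D9k) averaged 4717 ± 1774 CPM and varied more between libraries than these subunits did, with 4750, 6475 and 2927 CPM. Spp1 (osteopontin), Fth1 (ferritin heavy chain), Klk1 (tissue kallikrein), Defb1, Cox6c, Cox4i1, Clu (clusterin) and Umod (uromodulin) were also among the 15 most abundant. Umod, the major protein of the ascending limb, stood at 2205, 2830 and 2228 CPM. Compared with 12285, 12493 and 11246 CPM in ascending limb cells, Umod fell by 2.21 on the log2 scale (SE 0.115) and called, while proximal tubule cells held 63.1, 123 and 20.6 CPM.

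DCT cells were first set against ascending limb cells, the segment before them, taken by the same rule with Slc12a1 and Slc12a3 exchanged (1873 cells). Counts were summed per library and kind of cell, and edgeR's quasi-likelihood test was run with the library as a block. Of 11314 genes tested, 376 were higher (3.32%) and 632 lower (5.59%) in DCT cells, 8.91% in all, by at least 2-fold at a Benjamini-Hochberg adjusted p of at most 0.05. All 8 tested DCT markers were higher. Pvalb differed most, by 8.71 on the log2 scale (SE 0.24, adjusted p = 1.3e-07), followed by the homeobox factors Emx1 (238, 246 and 276 against 1.33, 3.57 and 1.28 CPM) and Lhx1 (213, 177 and 249 against 0.999, 3.26 and 0.960 CPM). The muscle form of phosphoglycerate mutase, Pgam2, reached 450.5, 562 and 594 CPM against 4.50, 7.45 and 14.4 CPM. The ammonia transporter gene Rhcg, the epithelial sodium channel subunit Scnn1b, the factor Gata3 and the long noncoding RNA Lhx1os were the other 4 of the 10 largest rises after Calb1 and the sodium-calcium exchanger Slc8a1.

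**Figure D1:**
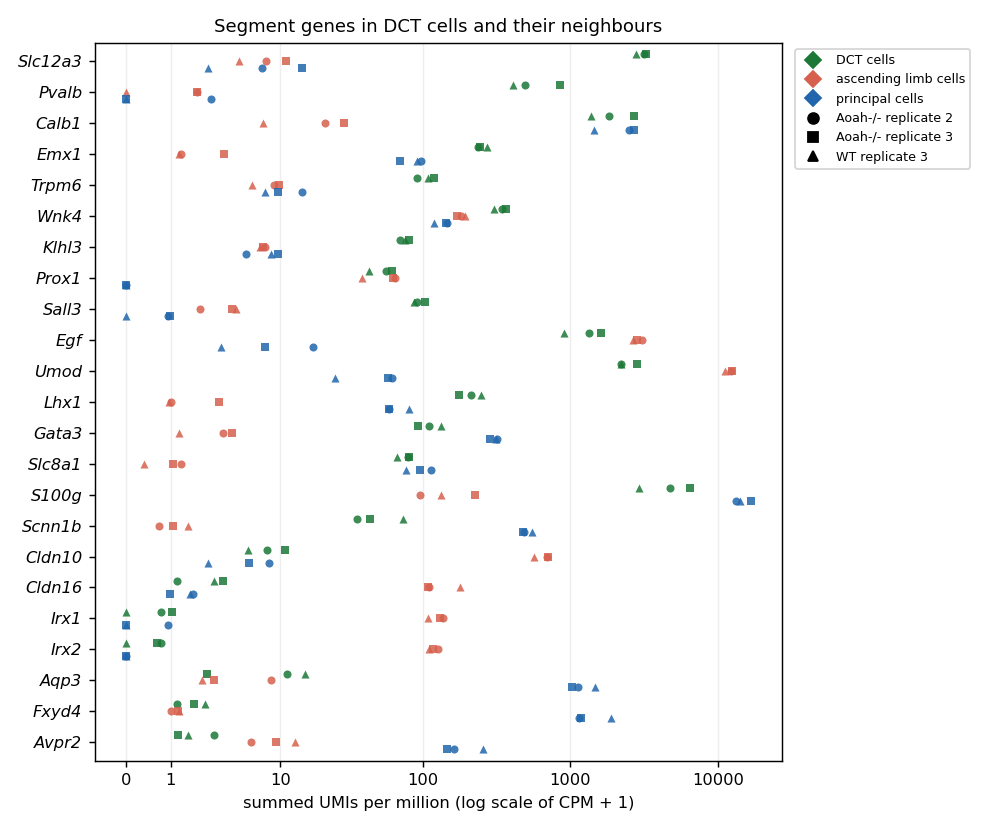
Levels of segment genes (rows) as summed CPM on a log scale of CPM + 1, 1 point per library, in DCT cells (green), ascending limb cells (red) and principal cells (blue). Slc12a3 took part in choosing the cells. Pvalb stands at 413 to 857 CPM in DCT cells and at 2.72 CPM or less in both neighbours, while Calb1 and S100g are also high in principal cells.

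The regulators and ion channels named for this segment were described by lists. Of 19 tested genes of NCC regulation, 5 were higher and none lower than in ascending limb cells. These were the kinases Wnk1 and Wnk4, the ubiquitin ligase adaptor Klhl3 that degrades them, the potassium channel Kcnj10 and the mineralocorticoid receptor Nr3c2. Wnk1 reached 2131, 2450 and 1936 CPM against 479, 391 and 565 CPM in ascending limb cells, and Wnk4 344, 370 and 304 CPM against 182, 172 and 194 CPM. The list's median was 0.26 on the log2 scale and that of all genes tested was -0.02. Klhl3 rose by 3.45 (SE 0.11) and Kcnj10 by 2.10 (SE 0.11) on that scale.

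Of 12 tested magnesium genes, 4 were higher and 2 lower. Trpm6 (chromosome 19, 18749983 to 18892511), the magnesium channel, stood at 91.2, 120.3 and 109 CPM against 8.99, 9.78 and 6.08 CPM, a rise of 3.73 (SE 0.13). Cnnm2, a basolateral protein of magnesium transport, Trpm7 and Slc41a3 rose with it. Egf, whose product stimulates TRPM6, was abundant in DCT cells (1345, 1608 and 904 CPM) but fell by 1.08 on the log2 scale (SE 0.14) relative to ascending limb cells (3061, 2837 and 2667 CPM). Of 11 calcium genes, 7 rose (Trpv5, Trpv6, S100g, Slc8a1, Atp2b4, Vdr and Kl) and the calcium-sensing receptor Casr fell by 1.14 (SE 0.13).

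Lower in DCT cells were the genes that define the ascending limb. Of its 7 tested markers, 6 fell, among them the claudins Cldn10 (8.00, 10.8 and 5.62 against 702, 715 and 573 CPM) and Cldn16 (1.21, 3.54 and 2.94 against 111, 109 and 179.9 CPM). The factors Sim2, Irx1 and Irx2 were nearly absent. Irx1 held 0.727, 1.04 and 0 CPM against 137, 131 and 108 CPM, and Irx2 0.727, 0.625 and 0 CPM against 127, 117 and 110.4 CPM. Tmem207, Nccrp1, Slc5a1, Gm17750 and Pla2g7 completed the 10 largest falls. Of 27 distal transcription factors tested, 7 were higher (Tfap2a, Gata2, Gata3, Emx1, Lhx1, Hoxd8 and Sall3) and 6 lower (Esrrb, Irx1, Irx2, Irx3, Pax2 and Pax8). Of 27 tubule injury genes, 7 were lower in DCT cells (Anxa1, Anxa2, S100a10, Lgals3, Cryab, Timp2 and C3) and Clu was higher. Of 23 immediate early and heat shock genes, 6 fell (Fosb, Junb, Atf3, Zfp36, Klf2 and Klf6). Of 55 nuclear genes of oxidative phosphorylation, 1 passed (Ndufa1), with a list median of 0.49. Haemoglobin transcripts were lower for 3 of 4 genes; they are described with the classes.

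Principal cells, taken by the rule with Aqp2 and Slc12a3 exchanged, numbered 360 and served as the neighbour on the other side. They also carried connecting tubule genes, with S100g at 13321, 16709 and 14206 CPM and Calb1 at 2503, 2714 and 1453 CPM. Of 10170 genes, 634 were higher (6.23%) and 609 lower (5.99%) in DCT cells, 12.2% in all. Prox1, a homeobox factor, was at 0 in the principal cells of every library and at 56.3, 61.7 and 43.1 CPM in DCT cells. Pvalb, Uroc1 (urocanate hydratase), Ppp1r1a (an inhibitor of protein phosphatase 1), Fam107a, Sall3, Egf, Sfrp1, Pigr and Abca13 were the other large rises. Ppp1r1a stood at 875, 1064 and 979.9 CPM against 7.27, 6.76 and 2.54 CPM. Of 55 oxidative phosphorylation genes 17 were higher and none lower, with a list median of 0.87 against 0.01 for all genes. Cox6c rose by 1.23 (SE 0.07). Of 26 injury genes 8 were higher than in principal cells (Lcn2, Spp1, Vcam1, Sox9, Cdkn1a, Cp, Tnfrsf12a and Cxcl1) and 6 lower, with a list median of 0.47, whereas it was -0.62 against ascending limb cells.

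Of 12 magnesium genes 8 were higher than in principal cells and 2 lower (Cnnm4 and Egfr), and Fxyd2, the pump subunit mutated in a form of renal magnesium wasting, rose by 4.82 (SE 0.14). Calcium genes went both ways, with 3 of 12 higher than in principal cells (Atp2b4, Pth1r and Casr) and 3 lower (Trpv5, S100g and Stim1). Connecting tubule markers were lower for 5 of 9 and higher for none. All 8 tested principal cell markers fell. Among the 10 largest falls were the lysosomal channel Mcoln3, Fxyd4, the water channels Aqp4 and Aqp3, Col26a1, the potassium channel subunit Kcne1, Apela, the prostaglandin receptor Ptger1 and the vasopressin receptor Avpr2. Aqp3 held 11.2, 2.50 and 15.3 CPM in DCT cells against 1138, 1029 and 1483 CPM. Aldosterone-responsive genes were lower for 7 of 15, and Hsd11b2, the enzyme that protects the mineralocorticoid receptor from glucocorticoids, stood at 96.7, 82.1 and 151 CPM against 3401, 3404 and 3951 CPM. Scnn1b was intermediate, with 35.4, 43.8 and 73.9 CPM in DCT cells, 0.666, 1.09 and 1.60 CPM in ascending limb cells and 489, 482 and 554 CPM in principal cells. Among markers of other cell types, none of 12 proximal tubule genes, 13 immune genes or 9 endothelial genes was called against ascending limb cells, and none of 12, 10 and 9 against principal cells. All 4 haemoglobin genes were higher than in principal cells (median log2 3.42), with Hbb-bs at 111, 1237 and 1038 CPM against 33.6, 109 and 137 CPM. Col1a2 and Dcn of fibroblasts were lower and the urothelial gene Upk3a higher than in ascending limb cells.

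DCT cells were then split by their own Pvalb and Calb1 UMIs. A cell was Pvalb-high with 3 or more Pvalb UMIs and at least 2 times as many as of Calb1, Calb1-high with the reverse, Mixed when the sum was 3 or more without either, and Low when the sum was under 3. These are ranges of a continuous measure and not cell types. Pvalb-high cells were 12.9%, 19.8% and 16.0% of DCT cells (53, 101 and 56 cells). Calb1-high cells were 24.9%, 25.05% and 19.8% (102, 128 and 69 cells). Mixed cells were 17.1%, 21.3% and 14.3% (70, 109 and 50 cells). Low cells were 45.1%, 33.9% and 49.9% (185, 173 and 174 cells). The Clopper-Pearson intervals of the Pvalb-high shares overlapped between all libraries (9.84 to 16.6%, 16.4 to 23.5% and 12.4 to 20.3%). The Low share of Aoah-/- mouse 3 (29.8 to 38.1%) lay below both others (40.2 to 50.1% and 44.5 to 55.2%), and the Aoah-/- libraries lay further from each other than Aoah-/- mouse 2 lay from WT.

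**Figure D2:**
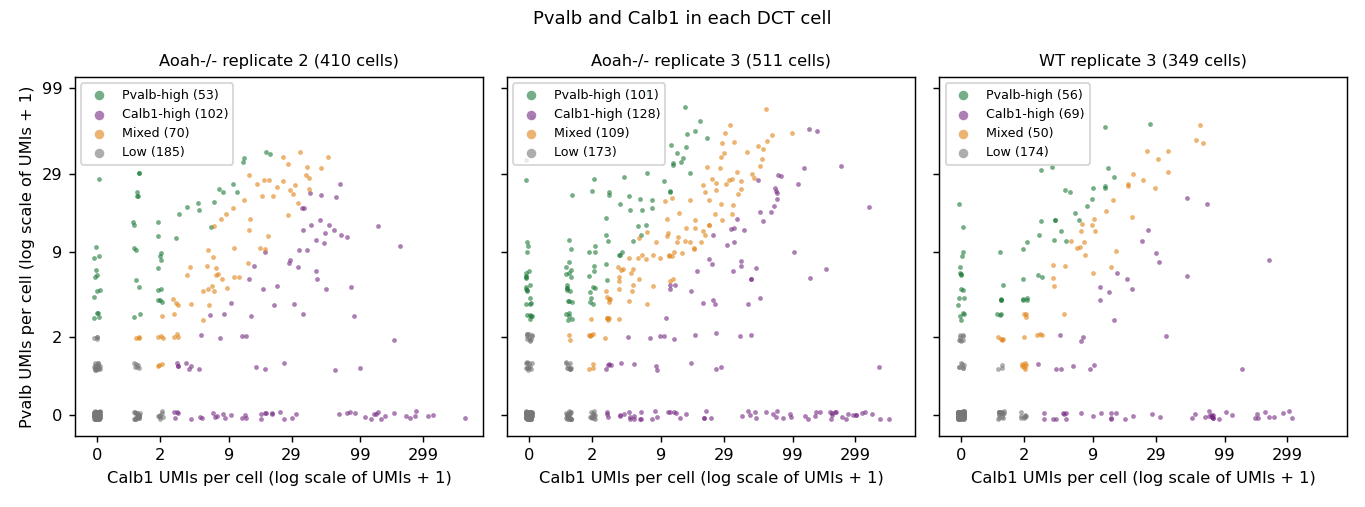
Pvalb against Calb1 UMIs in each DCT cell, both on a log scale of UMIs + 1 with a small random shift, 1 panel per library, coloured by class with cell numbers. Cells run along a diagonal from few to many UMIs of both genes, another set has Calb1 alone, and the grey Low cells near the origin number 185, 173 and 174.

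Among DCT cells 128, 100 and 130 held no UMI of either gene (31.2%, 19.6% and 37.2%). Low cells held fewer Slc12a3 UMIs, with medians of 21, 10 and 13 against 34, 33 and 35 in Pvalb-high cells and 37, 38.5 and 34 in Calb1-high cells, and 140, 87 and 113 of them held 10 or more. Their summed Slc12a3 was 2624, 2336 and 1966 CPM against 3581, 3638 and 3605 CPM in the other DCT cells. Their median depths of 8322, 5765 and 9265.5 UMIs lay below the 11434, 10992 and 11541 UMIs of Calb1-high cells. Those of Pvalb-high cells were 9290, 7772 and 8785 UMIs, so that in WT Low cells were the deeper of the pair. In cells of 5000 or more UMIs, a limit chosen after the data were seen, Low shares were 43.1%, 28.3% and 46.8%. With classes set on counts thinned to the UMI limit they were 62.2%, 52.8% and 70.8%, and Pvalb-high shares were then 8.78%, 10.96% and 8.02%. At the limit of 20% mitochondrial UMIs, Calb1-high shares were 13.1%, 17.6% and 9.02%. Low cells had the smallest median mitochondrial share of the 4 classes, at 26.5%, 23.1% and 20.9%, and Calb1-high cells the largest, at 34.7%, 31.9% and 31.5%.

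**Figure D3:**
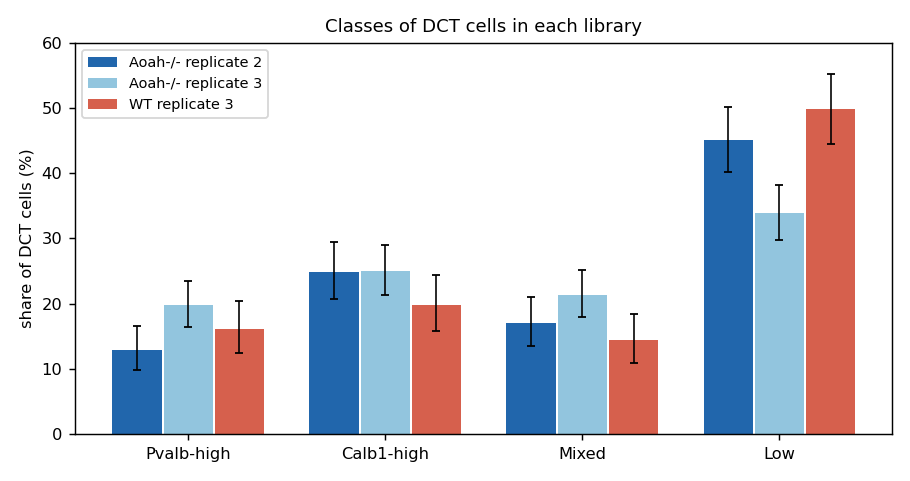
Share of DCT cells (%) in each class, 1 bar per library, with exact Clopper-Pearson 95% intervals that cover counting error only. Low cells are the largest class in every library, and the 2 Aoah-/- libraries (45.1% and 33.9%) differ from each other.

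Pvalb-high and Calb1-high cells differed in genes of calcium and sodium transport that are known from the connecting tubule, among others. With Pvalb, Calb1 and the 8 selecting genes left out, 50 of 7132 genes were higher in Pvalb-high cells (0.701%) and 106 lower (1.49%), 2.19% in all, by edgeR with the library as a block. DESeq2 called 31 (12 higher and 19 lower), of which 30 were among the 156, and at 20% mitochondrial UMIs 68 of the 156 could be tested and 52 were called again. The classes were cut on Pvalb and Calb1 UMIs of the same cells. Differences in genes that go with either therefore follow in part from the choice, and their p-values do not stand apart from it. All 8 tested connecting tubule markers were lower in Pvalb-high cells. S100g held 473, 667 and 72.9 CPM in Pvalb-high cells and 14992, 19251 and 13278 CPM in Calb1-high cells, and fell by 5.53 on the log2 scale (SE 0.23, adjusted p = 1.4e-14). Trpv5, the apical calcium channel, held 3.99, 0 and 0 CPM against 58.0, 59.3 and 55.4 CPM. Slc8a1 held 14.0, 9.61 and 14.95 CPM against 226, 223 and 252 CPM. The groups did not overlap for any of the 3, with Pvalb-high below, as was so for 7% of all genes tested. Klk1 fell by 3.21 (SE 0.07) and Kl (klotho, which acts on calcium and phosphate handling) by 1.90 (SE 0.09), and Vdr, the vitamin D receptor, by 1.13 (SE 0.11), so that 8 of 10 calcium genes were lower.

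Of 15 sodium channel and aldosterone response genes 4 were lower in Pvalb-high cells (Scnn1b, Scnn1g, Hsd11b2 and Cldn4) and none higher, with a list median of -0.24. Scnn1b stood at 1.996, 3.20 and 7.48 CPM in Pvalb-high and 56.3, 58.5 and 95.3 CPM in Calb1-high cells, Scnn1g fell by 5.42 (SE 0.49) and Hsd11b2 fell by 4.196 (SE 0.30), whereas Scnn1a, shared by both, stood at 164, 173 and 163 CPM against 166, 175 and 156 CPM and was not called. The prostaglandin synthase Ptges, the T-box factor Tbx2, Hhatl and Gm7325 were among the 10 largest falls. Tbx2 held 3.99, 2.14 and 1.87 CPM against 61.4, 61.4 and 64.4 CPM. None of the 19 NCC regulation genes passed in either direction, and neither did any of the other 6 tested DCT markers. Wnk4 was at 399, 450 and 419 CPM against 379, 386 and 359 CPM, and Trpm6 at 114, 136 and 166 CPM against 109, 144 and 152 CPM. Slc12a3, a selecting gene, was at 3944, 3750 and 3656 CPM against 3346, 3406 and 3533 CPM.

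Higher in Pvalb-high cells were Egf (3347, 2987 and 2067 against 941, 1248 and 564 CPM, log2 1.56, SE 0.09), Umod (4385, 4132 and 3755 against 1773, 1771 and 987 CPM, log2 1.39, SE 0.09), the brain form of creatine kinase Ckb (816, 841 and 1056 against 195, 206 and 308 CPM) and the secreted inhibitor Wfdc15b (2529, 2418 and 2369.8 against 739, 745 and 488 CPM). Gpx6, Pigr (the receptor that moves immunoglobulin A across epithelia), Gm15848, which lies antisense to another gene, Lrrn1 and Pla2g12a were also among the 10 largest rises. Egf and Umod are also ascending limb genes, and Ptger3 of that list rose with them. Genes of oxidative phosphorylation did not pass the 2-fold limit (0 of 55), although their median was 0.60 against -0.01 for all genes, with Cox6c at 4345, 4911 and 4435 against 2316, 2892 and 2584 CPM. Of 19 injury genes, 6 were lower in Pvalb-high cells (Lcn2, Clu, Krt18, Spp1, S100a6 and Vim) and none higher. Clu was at 497, 730.4 and 692 CPM against 2989, 2566 and 3045 CPM.

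The 2 largest rises, however, were the haemoglobin genes Hbb-bs and Hba-a1, and all 4 haemoglobin genes were called. Hbb-bs was at 45.9, 3195 and 2050.2 CPM in Pvalb-high and 34.1, 233 and 115 CPM in Calb1-high cells, so the difference lay in Aoah-/- mouse 3 and the WT mouse and not in Aoah-/- mouse 2. In each library 5 cells held 71.4%, 78.4% and 88.1% of all Hbb-bs UMIs of the DCT cells, though 121, 226 and 245 cells held at least 1. The haemoglobin genes share near-identical copies, and the part that erythrocytes in the same droplet played was not tested. Hbb-bs lost its call with no excluded marker UMI (log2 0.37) and with classes from thinned counts (log2 0.86), and Hba-a1 with the latter (log2 1.13). Of the other large rises, Pigr lost its call at a limit of 20% mitochondrial UMIs (log2 0.38), and Lrrn1 and Pla2g12a lost theirs with no excluded marker UMI (log2 1.05 and 0.94).

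**Figure D4:**
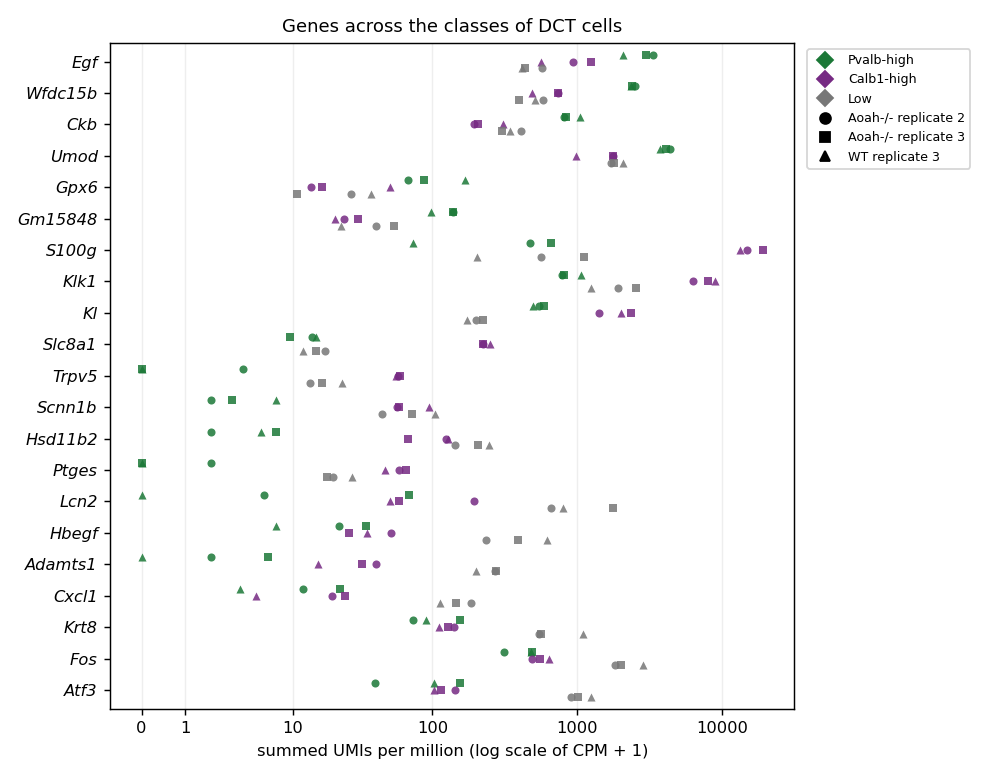
Levels of 21 genes (rows) as summed CPM on a log scale of CPM + 1, 1 point per library, in Pvalb-high (green), Calb1-high (purple) and Low cells (grey). S100g, Slc8a1, Trpv5 and Scnn1b are lower in Pvalb-high than in Calb1-high cells in every library, and Lcn2, Hbegf, Krt8, Fos and Atf3 are highest in Low cells.

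Over all DCT cells, many of which held few UMIs of either gene, Pvalb and Calb1 rose together rather than apart. Low cells were included, and their part in this was not tested. Over cells thinned to the UMI limit, Spearman's rho between them was 0.28, 0.22 and 0.29 (410, 511 and 349 cells, which share a library and its free RNA). Of 3113 genes found in at least 5% of the cells, those most like Pvalb by the mean rho over libraries were Defb1 (0.49, 0.54 and 0.55), Wfdc15b, Fth1, Egf, Cox6c, Atp5e, Oxct1, Cox4i1, Atp5g1 and Umod (0.30, 0.46 and 0.30). Those most like Calb1 were Kl (0.51, 0.53 and 0.58), Defb1 (0.50, 0.45 and 0.46), S100g, Sfrp1, Wnk1, Slc8a1, Klk1, Sgms2, Pvalb and Pgam2. At the other end, rho with Pvalb was lowest for Wfdc2 (-0.36, -0.36 and -0.39), Hes1 and Jun, and rho with Calb1 for Fos (-0.27, -0.34 and -0.34), Jun and Junb.

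Because Low cells were the largest class, they were compared with all other DCT cells, a comparison added after the class sizes were seen. Of 9524 genes, 523 were higher (5.49%) and 232 lower (2.44%) in Low cells, 7.93% in all, by edgeR with the library as a block. Low cells were chosen for few Pvalb and Calb1 UMIs. Rises of genes that run against either, such as Lcn2, Spp1, Fos and Jun, therefore follow in part from the choice. Injury genes were higher for 20 of 26 tested and lower for none, with a median of 1.68 on the log2 scale against 0.01 for all genes. Lcn2 (chromosome 2, 32384633 to 32388252), which encodes the injury marker NGAL, held 659, 1774 and 805 CPM in Low cells and 96.7, 43.5 and 20.7 CPM in the others. The keratins Krt8 (547, 568 and 1109.5 against 108, 126 and 99.0 CPM) and Krt18 (log2 2.81, SE 0.16), the annexin Anxa1 and the calcium-binding S100a6 (456, 411 and 1008 against 65.6, 46.5 and 80.0 CPM) rose with it, and Spp1 stood at 8923, 10261 and 10479 against 3742, 3542 and 2024 CPM. Every Low library lay above every other library for each of these, as was so for 36.9% of all genes tested. S100a6 was uneven between cells, with 66.1%, 54.4% and 60.5% of its DCT UMIs in 5 cells, as was Anxa1 (48.2%, 49.1% and 56.5%). The injury genes without a call were 6 of 26, among them Clu (log2 0.80, SE 0.17) and Cdkn1a (log2 0.50, SE 0.28).

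Immediate early and heat shock genes were higher for 17 of 23 and lower for none (median 1.92). Fos was at 1830, 2005 and 2857 CPM against 379, 432 and 575 CPM, Jun at 2477, 2608 and 3956 CPM against 562, 491 and 997 CPM, and Atf3 at 915, 1010 and 1252 CPM against 92.1, 98.8 and 115 CPM. Some of these genes are induced by tissue dissociation as well as by injury, and these cannot be told apart here. Also among the 10 largest rises were the interleukin-36 gene Il1f6 (chromosome 2, 24215418 to 24225702), the chemokine Cxcl1, the growth factor Hbegf, endothelin 1 (Edn1), the adhesion molecule Icam1, the protease Adamts1, the kinase Plk2 and the factor Klf4. Il1f6 reached 59.5, 81.6 and 93.0 CPM against 1.66, 0.882 and 0.530 CPM, but was found in 21, 20 and 28 DCT cells only, and 5 cells held 67.0%, 60.7% and 66.5% of its UMIs. Hbegf was more widely spread (76, 80 and 90 cells), with 236, 392 and 620 CPM against 33.6, 22.1 and 20.7 CPM. Of 17 interferon genes 9 were higher, and of 11 MHC class I genes 6, including B2m (257, 367 and 271 against 143, 165 and 62.5 CPM).

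Some transport genes were lower in Low cells, though most of those tested were not called (14 of 19 for NCC regulation, 7 of 11 for magnesium). Of 19 NCC regulation genes 5 fell (among them Wnk1, Klhl3, Ppp1r1a and Cab39l), of 11 magnesium genes 4 (Trpm6, Cnnm2, Egf and Pcbd1), of 11 calcium genes 6 with only Trpv6 higher, and of 6 DCT markers 4. Of 15 genes of the sodium channel and aldosterone response, in contrast, Hsd11b2 and Cldn4 were higher and Kcnj1 lower, with a median of 0.05. Trpm6 stood at 61.2, 56.6 and 60.05 CPM against 112, 146 and 157 CPM, and Egf at 574, 436 and 417 CPM against 1894, 2089.9 and 1381 CPM. S100g, Slc8a1 and Kl fell by 4.07, 3.25 and 2.94 on the log2 scale (SE 0.26, 0.15 and 0.13), and Gm16010, Sult1a1, Cwh43, Defb1, Tfrc (transferrin receptor) and Cnnm2 were the other large falls beside Egf. Since Low cells were chosen for few Pvalb and Calb1 UMIs, the fall of genes that go with either also follows in part from the choice. Of 55 oxidative phosphorylation genes 8 fell. Wnk4 (285, 245 and 202 against 386, 421 and 404 CPM) and Emx1 (233, 221 and 237 against 242, 256 and 313 CPM) were not called.

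Markers of other cells also stood in the Low profiles. The intercalated marker Atp6v0d2, the only 1 of its list tested, was called higher (log2 1.28), as was Cldn19 among 6 ascending limb markers. Hsd11b2 was higher in Low cells (145, 208 and 247 against 62.7, 30.6 and 56.1 CPM), and the 8 principal cell markers summed to 229, 301 and 425 CPM against 7313, 7261 and 9119 CPM in principal cells, with Hsd11b2 the most abundant. The endothelial genes Plvap, Egfl7 and Fabp4 were called higher, and the 9 endothelial markers summed to 303, 105 and 37.3 CPM in Low and 102, 65.6 and 21.2 CPM in the other DCT cells. The 6 urothelial markers summed to 39.1, 3.58 and 133 CPM against 20.3, 3.24 and 32.3 CPM, and none of the 12 proximal tubule genes or 8 immune genes tested was called. The part of these cells in the result was not tested. With every excluded marker at 0 UMIs the calls numbered 449. Of the 755 genes 377 could be tested there and 302 were called again, while in cells of 5000 or more UMIs 735 could be tested and 711 were called again.

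Between genotypes the targeted gene could not serve as a check in DCT cells, since Aoah (chromosome 13, 20794113 to 21036617) gave 1, 1 and 2 UMIs there. In proximal tubule cells it stood at 12.5, 10.99 and 25.8 CPM, and the part of the gene removed in the knockout is not given in the sources used here. A rule of size was used, which asked for 50 CPM, a 2-fold difference between the Aoah-/- mean and WT with 1 CPM added, a distance to WT larger than the gap between the Aoah-/- libraries, and Poisson 95% intervals apart from that of WT. Of 2657 genes at this level, 7 were higher (0.263%) and 29 lower (1.09%) in Aoah-/- DCT cells, 1.35% in all. With no excluded marker UMI the split was nearly even, with 8 higher and 10 lower, and at 20% mitochondrial UMIs 11 were higher and 20 lower. The median log2 ratio of all of them was -0.08. A count model that lends the WT library the spread of the Aoah-/- libraries called 314 of 11356 genes with edgeR and 28 with DESeq2.

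Few of the segment's own genes met the rule, as was so for all genes at this level (1.35%). Slc12a3, a selecting gene, had a log2 ratio of 0.20 (SD 0.02 between the Aoah-/- libraries). Pvalb had 0.71 (SD 0.55) and Calb1 0.70 (SD 0.40), both below the 2-fold limit and with Aoah-/- mouse 2 (499 and 1824 CPM) nearer to WT (413 and 1391 CPM) than to Aoah-/- mouse 3 (857 and 2697 CPM). None of the genes at this level in the lists of NCC regulation (14), magnesium (8) and calcium handling (8) or oxidative phosphorylation (55) met it, with list medians of 0.09, 0.06, 0.22 and 0.11. Of 8 sodium channel and aldosterone response genes, the claudin gene Cldn4 met it as lower. Within Pvalb-high cells S100g met it as higher (473, 667 and 72.9 CPM).

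Some genes of the injury list were lower in Aoah-/- DCT cells, while most of the list did not meet the rule. Of 17 injury genes at this level 6 met the rule, all lower (Krt8, Krt18, Krt19, Cdkn1a, S100a6 and Tnfrsf12a), and 14 lay below WT in both Aoah-/- libraries, with a list median of -0.65. Over all genes at this level 1.09% met the rule as lower and 52% lay below WT in both. Of 23 immediate early and heat shock genes 21 lay below WT in both, with a median of -0.69, but only Fosb met the rule (299, 268 and 633 CPM). This list lay low in the neighbouring segments as well, with 19 of 23 below WT in both Aoah-/- libraries in ascending limb cells (median -0.44, against 57.8% of all genes) and 20 of 23 in principal cells (median -0.61, against 55.1%). In proximal tubule cells, by contrast, 11 of 20 lay above WT in both and 8 below (median 0.41). There 753 of all 2641 genes at this level lay above WT in both and 1491 below. Medians of the injury list were -0.05, -0.25 and 0.38 in ascending limb, principal and proximal tubule cells. Those of all genes there were -0.10, -0.13 and -0.08. In DCT cells Krt8 held 290.5, 255 and 599 CPM, Krt18 132, 126 and 291 CPM, and Cdkn1a, the cell cycle inhibitor p21, 43.9, 49.8 and 124 CPM. Outside the injury list, the growth factor gene Hbegf held 118, 130 and 317 CPM, Sfn (14-3-3 sigma) 42.9, 55.2 and 177 CPM, Edn1 57.7, 23.8 and 137 CPM, and Plk2 47.0, 29.2 and 102 CPM. In each of these genes the WT library lay above both others. The 6 urothelial markers ran the same way in DCT cells, summing to 28.1, 3.34 and 82.2 CPM with Krt15, Upk1a and Upk3a highest in turn (only Upk3a of Aoah-/- mouse 3 was at 0), as did the 8 principal cell markers, which summed to 170, 149 and 276 CPM with Hsd11b2 highest and Aqp4 at 0 in Aoah-/- mouse 3 and WT. The part of such cells in the fall was not tested.

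Apart from Cdkn1a, the injury genes that met the rule were also called higher in Low cells, which were 49.9% of WT DCT cells and 45.1% and 33.9% of the others. With no excluded marker UMI the Low shares were 46.1%, 29.8% and 44.5%, so that WT no longer had the largest. In DCT cells that were not Low, a split added after the data were seen, the injury list had a median of -0.01, with 1 of 13 genes lower (Cdkn1a at 19.5, 34.7 and 136 CPM), 6 above WT in both Aoah-/- libraries and 4 below. Over all 2429 genes at this level in these cells, 761 lay above WT in both and 887 (36.5%) below. The injury list summed to 6870, 6429 and 5055 CPM in these cells. Spp1 alone made up a large part of these sums, and its levels in these cells, given above, were lowest in WT. The list was not summed without Spp1. In Calb1-high cells 8 of 14 injury genes lay above WT in both and 4 below (median 0.14), and in Pvalb-high cells 3 of 11 above and 1 below (median 0.25). Over all genes at this level, 817 of 2492 lay above and 929 below in Calb1-high cells. The corresponding counts in Pvalb-high cells were 878 and 898 of 2631. Among all genes, 13 met the rule in the cells that were not Low, 6 higher and 7 lower. Within Low cells 35 genes met it, and 14 of 21 injury genes at this level lay below WT in both Aoah-/- libraries, against 52.5% of all genes there, with a list median of -0.44 and 3 that met the rule (Krt19, S100a6 and Tnfrsf12a). There S100a6 was at 456, 411 and 1008 CPM, Sfn at 77.6, 128 and 323 CPM and Edn1 at 120, 71.6 and 259 CPM. The immediate early list had a median of -0.50 in cells that were not Low and of -0.44 within Low cells. None of its genes met the rule in either. In these 2 sets of cells 20 of 21 and 20 of 23 lay below WT in both, against 36.5% and 52.5% of all genes. How much of the difference comes from the share of Low cells was not tested.

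Several of the largest ratios rested on few cells. Foxq1 (22.5, 6.88 and 82.4 CPM), Gstm1 (89.7, 49.8 and 355 CPM) and Ly6d (38.6, 13.6 and 81.3 CPM) had 96.1%, 89.3% and 98.4% of their WT UMIs in 5 cells, and without each gene's 5 highest cells in each library their log2 ratios were 0.21, 0.23 and 1.17, the opposite direction. Sprr1a and Krt19 had 80.1% and 75.5% of their WT UMIs in 5 cells. Without them Krt19 had a log2 ratio of -0.85, while that of Sprr1a was still -1.88 and the gene only fell below the 50 CPM level. Of the 36 genes, 25 did meet it without their 5 highest cells, among them S100a6, Sfn, Edn1, Plk2, Hbegf, Krt8, Krt18 and Cdkn1a, although S100a6 reversed to 0.57 when the marker limits were set on thinned counts. Within Pvalb-high cells alone, S100a6, Plk2 and Krt19 ran the other way (1.31, 1.38 and 2.50). Erdr1, a gene with near-identical copies, held 36.4, 16.3 and 92.1 CPM and was lower in ascending limb cells as well (57.4, 28.5 and 127 CPM).

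The 7 genes higher in Aoah-/- DCT cells were Gm8730, a processed pseudogene whose reads may belong to its parent gene (56.0, 58.0 and 15.3 CPM), Gm16010 (73.9, 96.5 and 29.2 CPM), Pck1 (54.8, 48.4 and 20.1 CPM), Apoe (99.6, 133 and 48.4 CPM), Nnt, Col5a2 (77.6, 74.4 and 35.1 CPM) and Spink1 (53.6, 65.9 and 29.2 CPM). Pck1 encodes the key enzyme of gluconeogenesis, Apoe a lipoprotein component and Nnt the mitochondrial transhydrogenase. Both Aoah-/- libraries lay above WT in ascending limb cells too, which held 86.7, 90.3 and 14.1 CPM of Gm8730 and 55.9, 57.6 and 19.5 CPM of Pck1. Gm16010, an antisense gene whose reads may belong to its partner, was mostly found in DCT cells that were not Low (125, 134 and 53.5 CPM against 1.75, 5.01 and 4.33 CPM in Low cells). The 15 immune markers outside the choice summed to 134, 181 and 51.6 CPM, with Lyz2 highest (45.1, 39.6 and 14.7 CPM) and 14 or 15 of 15 detected, so both Aoah-/- libraries lay above WT. The 12 proximal tubule markers summed to 907, 1432 and 899 CPM, with Kap highest, so only Aoah-/- mouse 3 stood apart. Apoe and Pck1 are expressed by such cells, and the part of free RNA in their ratios was not tested.

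**Figure D5:**
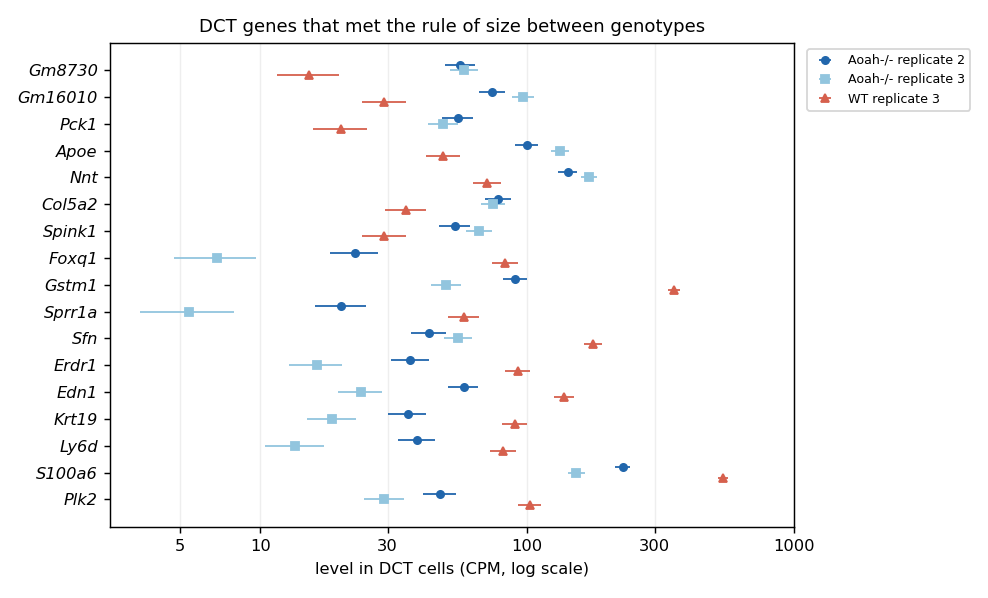
Levels in DCT cells (CPM, log scale) of the genes that met the rule of size between genotypes, all 7 higher ones and the 10 lower ones of largest ratio, 1 point per library with exact Poisson 95% intervals, which cover counting error only. The WT library lies apart from both Aoah-/- libraries in each row, and for Foxq1, Gstm1 and Ly6d most WT UMIs came from 5 cells.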

How the data were processed

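Single-cell 3′ libraries of whole kidney were made with 10x Genomics Chromium chemistry. The submitters' processing notes name Cell Ranger 3.1.0, STAR, Seurat 4.2.0 and the build mm10, while the matrix headers name cellranger 6.1.2. What the authors deposited were unnormalized counts of UMIs for 27998 genes in each barcode. Library totals were 167222984, 161015021 and 158551992 UMIs. The members, gene lists and tests were chosen with earlier results of these data known. No doublet caller was run, so doublets were limited by the marker limits only, and free RNA was not subtracted. Libraries shared 171 to 176 barcodes pairwise, and none of these was a DCT cell in both.

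UMI counts were summed per library and kind of cell. edgeR 4.0.16 (R 4.3.3) tested summed counts with filterByExpr, TMM and the library as a block, Benjamini-Hochberg adjusted over all genes tested. DESeq2 1.42.0 was an alternative. Each library came from 1 mouse. With the library as a block, p-values measure how the difference within a library varies over the 3 libraries, both genotypes pooled. SE values were derived from the log2 fold and the F statistic of that test. Genes named are the 15 most abundant, the 10 largest rises and falls called in each comparison with at least 50 CPM and 1 direction in all libraries, the 10 best correlates of Pvalb and Calb1, and members of fixed lists. A few genes that this rule names are not reported here. In simulated data, 100% of genes changed 4-fold and 82% of those changed 2-fold were recovered for the comparison of Pvalb-high with Calb1-high cells (7105 genes), and 6.19% of the calls there were false. The simulation gave all genes the same dispersion and the libraries no differences but size. It changed only genes with enough expected counts and took calls by adjusted p alone. These shares hold for that setting and do not give the recovery or false share of the real calls. Intervals are Clopper-Pearson or Poisson at 95% (scipy 1.17.1). Positions are those of GENCODE M21 (GRCm38), looked up by Ensembl ID. Alternatives covered the gate, the mitochondrial limit, class limits, filters, scaling, tests and each library left out.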

Additional observations from a re-analysis of the deposited data

Results flagged for a closer look

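Klf2 and Ifit1 were picked out because their difference between DCT and principal cells ran one way in both Aoah-/- libraries and the other way in the WT library. Klf2, called higher in DCT cells (log2 1.18, adjusted p = 0.017 by edgeR), stood at 72.7, 109 and 86.4 CPM in DCT cells and at 16.3, 30.9 and 87.3 CPM in principal cells, so the WT values were nearly equal. Ifit1, called lower (log2 -2.32, adjusted p = 0.036 by edgeR), stood at 12.4, 4.79 and 4.55 CPM in DCT cells and at 15.4, 130.4 and 4.24 CPM in principal cells, and the fall rested on Aoah-/- mouse 3. The difference between the genotypes was not tested.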

How the results depend on the processing

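No paired analysis was possible because the genotypes share only the replicate number 3. Within-library comparisons had the library as a block, and leaving it out changed no count by over 1.5 times. Leaving out each library in turn gave 847 to 1178 calls against ascending limb cells, 1148 to 1353 against principal cells, 156 to 182 for Pvalb-high against Calb1-high and 692 to 934 for Low cells. The 1008 calls of DCT against ascending limb cells fell to 611 at a limit of 20% mitochondrial UMIs. The 156 calls of Pvalb-high against Calb1-high cells were 31 with DESeq2, 272 with no filter on low counts, 64 with no excluded marker UMI and 77 with classes from thinned counts. The 755 calls of Low cells were 449 with no excluded marker UMI. The 314 genotype calls of edgeR were 28 with DESeq2, and with a library left out this model could not be fitted. The 36 genes that met the rule of size became 67 at 20 CPM, 17 at 100 CPM, 19 with marker limits on thinned counts, 18 with no excluded marker UMI, 22 with the mean of per-cell CPM, 10 in Pvalb-high, 20 in Calb1-high and 13 in cells that were not Low. With 1 Aoah-/- library left out they were 37 to 60, the 60 without replicate 2. The Aoah-/- mean share of DCT cells minus WT, -0.0047 percentage points as reported, was -0.16, 0.10, 0.33, -0.31, -0.24 and 0.26 with 5 or more gate UMIs, 2 or more, thinned marker limits, 20% mitochondrial UMIs, no excluded marker UMI and a lowest total of 500 UMIs.

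Log2 ratios of single genes between genotypes changed sign as follows. S100a6 was 0.57 with thinned marker limits. With no excluded marker UMI, Foxq1 was 0.41, Gstm1 0.15, Krt19 0.086 and Ly6d 2.19. In Pvalb-high cells Foxq1 was 0.68, Gstm1 0.36, Krt19 2.50, S100a6 1.31 and Plk2 1.38. In Calb1-high cells Gstm1 was 0.11, Sprr1a 1.40, Krt19 0.50, Ly6d 1.86 and S100a6 0.93. Gm16010 was -0.28 in Low cells, and in cells that were not Low Krt19 was 0.69 and Ly6d 0.13. Without each gene's 5 highest cells Foxq1 was 0.21, Gstm1 0.23 and Ly6d 1.17. The cells that were not Low, the Low comparison and the settings without 5 cells or with 5000 UMIs were chosen after seeing the data. The causes were not tested. The single WT library limits every comparison of genotypes.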

Other observations

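A few genes chosen after their values were seen stood high in the WT library in DCT cells that were not Low. Cdkn1a was at 19.5, 34.7 and 136 CPM, Mdm2 at 34.9, 30.6 and 72.5 CPM, Gdf15 at 27.0, 13.8 and 80.5 CPM and Ccng1 at 60.2, 74.1 and 128 CPM. Of their UMIs in all DCT cells, 5 cells held 33.1%, 39.3% and 34.4% for Cdkn1a, 13.4%, 9.21% and 32.9% for Mdm2, 41.4%, 56.2% and 55.7% for Gdf15 and 9.69%, 8.28% and 23.6% for Ccng1, so that Mdm2 and Ccng1 were more concentrated in WT. In Calb1-high cells Cdkn1a was at 23.03, 49.3 and 194 CPM and Mdm2 at 37.5, 29.99 and 125 CPM. In ascending limb cells Cdkn1a was at 70.3, 74.2 and 86.1 CPM and Mdm2 at 46.0, 37.2 and 49.6 CPM, so their spread there was smaller. With 1 WT mouse this is a value of that mouse and was not tested.

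In the same cells B2m was at 143, 165 and 62.5 CPM and Cd74 at 44.8, 64.7 and 21.7 CPM, while in Low cells B2m was at 257, 367 and 271 CPM. Cd74 was also at 189, 320.1 and 127 CPM in proximal tubule cells. The 15 immune markers moved the same way in the DCT cells that were not Low, with sums of 132, 141 and 38.7 CPM and Lyz2 highest. The part of leukocyte RNA in these values was not tested. Tmsb4x stood at 377, 326 and 153 CPM.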
